A study of Mus musculus with 6 samples.

Results

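The metallothionein and zinc response genes described here are *Mt1*, *Mt2*, *Mt3*, *Mt4*, *Mtf1* and *Slc30a1*, 6 of the 20145 genes that could be named on the arrays. They were chosen by name with their differences between these same genotypes already known, so those differences are given as a description with no test. All 8 probes of the 6 genes were read on 6 one-colour Agilent mouse expression arrays (G3), each hybridized with 1 sample of whole uterine RNA. The study asked which genes differ in the uterus at the time of implantation when the transcription factor SOX17 is missing from the epithelium. The control group was 3 samples from *Sox17f/f* females, labelled as wild type, in which both *Sox17* alleles are floxed and no recombinase is present. The other group was 3 samples from *Sox17ed/ed* females. These carry the same floxed alleles and 1 copy of the iCre recombinase under control of the *Ltf* locus. This recombinase acts in the uterine epithelium from puberty, so *Sox17* of other cells, such as endothelium, is left in place. Females of both groups were mated with fertile males at 8 to 10 weeks of age, and their uteri were frozen without the embryos at gestation day (GD) 3.5 of natural pregnancy.

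Metallothioneins are small proteins rich in cysteine that bind zinc and copper and buffer the free metal in the cell. Their genes are switched on by zinc itself through MTF1, a zinc finger factor that binds short DNA sequences called metal response elements, and also respond to glucocorticoids, oxidative stress and inflammatory cytokines. *Mt1* and *Mt2* are expressed in most tissues, *Mt3* mainly in brain and *Mt4* in stratified squamous epithelium. *Slc30a1* encodes ZnT1, the zinc exporter of the plasma membrane and another target of MTF1. Proteins of the *Slc39a* (ZIP) family carry zinc into the cytosol, and those of the *Slc30a* (ZnT) family carry it out of the cell or into vesicles.

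The promoters of *Mt1*, *Mt2* and *Slc30a1*, as targets of MTF1, are shown with letter matches to the core of its element marked. The sequences are those of RefSeq on GRCm38.p6, run 5′ to 3′ from 250 bases before the annotated gene start to 50 bases from it, and all lie on the plus strand. Capitals mark the core of the metal response element, searched on both strands as TGCACNC or TGCGCNC. A match on the minus strand therefore appears in capitals as its reverse complement, as in GTGTGCA.
Mt1, chr8:94178839-94179138: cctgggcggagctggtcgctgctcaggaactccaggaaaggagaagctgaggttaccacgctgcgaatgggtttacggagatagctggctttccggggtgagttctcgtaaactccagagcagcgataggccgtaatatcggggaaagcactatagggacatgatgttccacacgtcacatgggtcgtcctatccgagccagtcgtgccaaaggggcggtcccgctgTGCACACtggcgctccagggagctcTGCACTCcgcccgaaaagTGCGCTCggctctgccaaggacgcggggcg
Mt2, chr8:94172368-94172667: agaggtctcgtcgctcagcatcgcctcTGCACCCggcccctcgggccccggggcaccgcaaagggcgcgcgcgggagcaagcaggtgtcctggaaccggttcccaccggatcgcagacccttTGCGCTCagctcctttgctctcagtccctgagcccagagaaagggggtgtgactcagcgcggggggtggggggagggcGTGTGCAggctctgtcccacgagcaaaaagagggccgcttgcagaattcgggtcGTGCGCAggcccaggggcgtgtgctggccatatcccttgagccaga
Slc30a1, chr1:191906531-191906830: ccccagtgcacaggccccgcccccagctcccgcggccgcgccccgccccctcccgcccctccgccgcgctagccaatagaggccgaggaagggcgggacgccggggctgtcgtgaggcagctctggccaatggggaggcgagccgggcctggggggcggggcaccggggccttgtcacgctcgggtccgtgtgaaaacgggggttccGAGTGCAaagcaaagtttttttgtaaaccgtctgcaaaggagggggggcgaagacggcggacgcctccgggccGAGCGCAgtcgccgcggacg

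The *Mt1* window held 3 cores, beginning at bases -23, 3 and 21 from the gene start, all on the plus strand. The *Mt2* window held 4 cores, which began at -223 and -128 on the plus strand and at -50 and 5 on the minus strand. In the *Slc30a1* window 2 cores lay at -43 and 31, both on the minus strand. The windows of *Mt3* and *Mt4* held 1 core each, and the window of *Mtf1*, the gene of the factor that binds these elements, held 0. Among all 32851 promoter windows of this length, 25.7% held at least 1 core, 7.11% at least 2, 1.97% at least 3 and 0.517% at least 4. These windows follow the annotated start, and a core outside of them was not counted.

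Other motifs were few in these windows. The SOX core ACAAT was found in the *Mt3* window alone, at -148, and in 31.0% of all windows. The core of the antioxidant response element, TGACNNNGC, was found at -79 in *Mt2* and at -82 in *Slc30a1*, and in 12.4% of all windows. The steroid receptor half-site AGAACA lay at -223 in the *Mtf1* window (19.0% of all windows), and the STAT site TTCNNNGAA was in none of the 6 (8.30% of all windows). A match is a run of letters and not a measured binding site, and no binding data were analysed here.

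**Figure D1:**
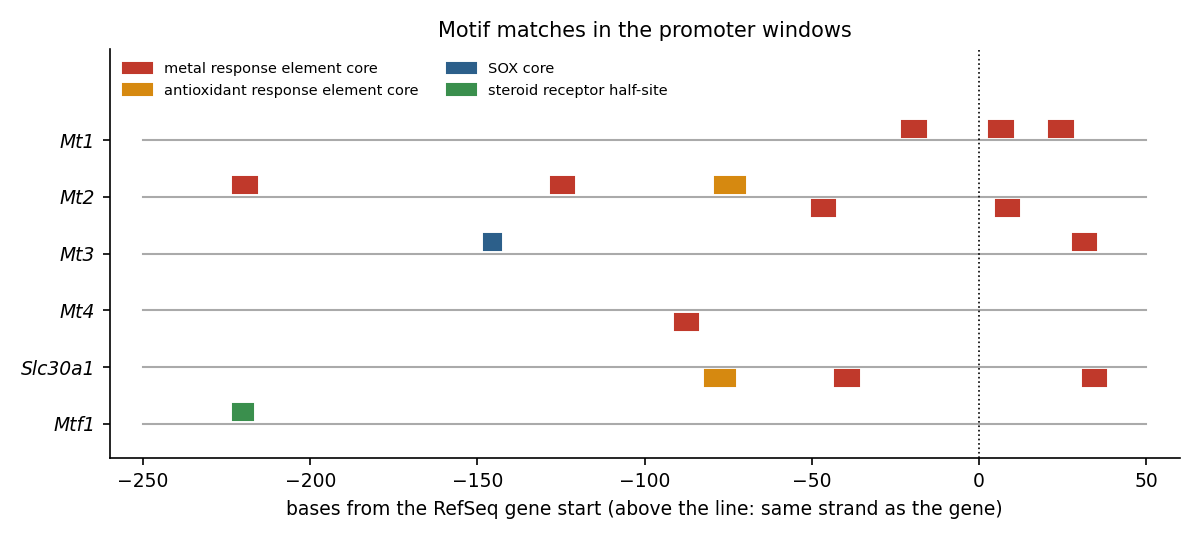
Positions of motif matches in the promoter windows of the 6 genes, with the distance from the annotated gene start in bases on the horizontal axis and 1 gene to a line. *Mt2* and *Mt1* hold 4 and 3 cores of the metal response element, *Slc30a1* holds 2, and the only SOX core lies in the *Mt3* window.

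A single scan read all arrays from 1 slide, on which the genotypes occupied different lines, so slide line and genotype cannot be told apart. Between 60.7% and 65.7% of the spots on *Sox17f/f* arrays and between 56.8% and 59.4% of those on *Sox17ed/ed* arrays exceeded background clearly, and 0 spots were saturated. *Sox17* itself had a normalized log2 signal of 12.17 ± 0.09 (SD, n = 3) in *Sox17f/f* and 9.72 ± 0.11 (SD, n = 3) in *Sox17ed/ed* uteri, a difference of -2.45 (SE 0.09, limma adjusted p = 2.66e-05). Of 14847 genes tested, 960 were lower (6.47%) and 897 higher (6.04%, together 12.5%) in *Sox17ed/ed* uteri at the thresholds of the study's methods, which are 0.01 for the unadjusted p and 1.4 for the fold change. The median log2 difference over all genes tested was -0.0016. The study's methods describe individual samples but not the number of mice in each. The p-values set each difference against the spread between these 3 samples of each genotype, which limma moderates over all genes tested.

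*Mt1* and *Mt2* were lower on every *Sox17ed/ed* array than on any *Sox17f/f* array. The normalized log2 signal of *Mt1* was 16.52, 16.75 and 16.62 in the *Sox17f/f* uteri and 15.16, 15.08 and 15.17 in the *Sox17ed/ed* uteri. The closest arrays of the genotypes were 1.35 apart, whereas the arrays of 1 genotype had an SD of 0.12 (*Sox17f/f*) and 0.05 (*Sox17ed/ed*, n = 3 each). The difference was -1.49 (SE 0.08, 95% interval -1.69 to -1.29), a signal 2.81-fold higher in *Sox17f/f*. On the linear scale before normalization between arrays, the processed signal of *Mt1* was 93851, 117221 and 104147 in *Sox17f/f* and 36300, 32088 and 35814 in *Sox17ed/ed* uteri.

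*Mt2*, the neighbour of *Mt1* and its partner in the response to metals, moved in the same way. Its log2 signal was 16.46, 16.71 and 16.52 in the *Sox17f/f* uteri and 14.88, 14.77 and 14.79 in the *Sox17ed/ed* uteri. The genotypes lay 1.58 apart at their closest arrays, with SDs of 0.13 (*Sox17f/f*) and 0.06 (*Sox17ed/ed*, n = 3 each). The difference was -1.75 (SE 0.09, 95% interval -1.96 to -1.54), a signal 3.37-fold higher in *Sox17f/f*. The processed signal before normalization was 90099, 113647 and 97849 in *Sox17f/f* and 29632, 25384 and 27490 in *Sox17ed/ed* uteri. In both genes the *Sox17f/f* array with replicate number 2 was the highest.

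The pair did not change by the same amount. Within each array the log2 signal of *Mt2* minus that of *Mt1* was -0.06, -0.04 and -0.10 in *Sox17f/f* uteri and -0.28, -0.31 and -0.39 in *Sox17ed/ed* uteri. The size of this offset also depends on the brightness of the 2 probes, but its means of -0.06 ± 0.03 (SD, n = 3) and -0.33 ± 0.05 (SD, n = 3) compare the genotypes on the same probes, and the groups did not overlap. Each gene was read by 1 probe, and binding of 1 transcript to the other gene's probe was not tested. Of all genes tested, 257 (1.73%) had a lower difference than *Mt1* and 207 (1.39%) a lower one than *Mt2*. Only 172 and 132 of these were well above background on at least 1 array of each genotype.

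The other genes differed far less. *Mt3*, the metallothionein known from brain, had a log2 signal of 8.79, 8.58 and 8.42 in *Sox17f/f* and 8.38, 8.37 and 8.08 in *Sox17ed/ed* uteri. Its difference was -0.32 (SE 0.13, 95% interval -0.64 to -0.0015), and the closest arrays were only 0.04 apart against SDs of 0.19 (*Sox17f/f*) and 0.17 (*Sox17ed/ed*, n = 3 each). The *Mt3* probe was well above background on all 6 arrays. *Mt4* was well above background on 1 *Sox17f/f* array and 0 *Sox17ed/ed* arrays, so it did not pass the filter and was not tested. Its log2 signal was 4.06, 4.12 and 2.89 in *Sox17f/f* and 3.98, 4.49 and 4.02 in *Sox17ed/ed* uteri, and the groups overlapped.

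*Mtf1*, which encodes the zinc sensor, and *Slc30a1*, which encodes the exporter, showed small differences in the same direction. The brightest of the 3 *Mtf1* probes gave 8.65, 8.69 and 8.83 in *Sox17f/f* and 8.61, 8.58 and 8.51 in *Sox17ed/ed* uteri. This was a difference of -0.15 (SE 0.07, 95% interval -0.33 to 0.02), with an interval that includes 0. Another *Mtf1* probe was well above background on 2 *Sox17f/f* arrays and 1 *Sox17ed/ed* array and overlapped between the genotypes, and the remaining one did not rise clearly above background anywhere. *Slc30a1* gave 8.52, 8.62 and 8.63 in *Sox17f/f* and 8.36, 8.16 and 8.46 in *Sox17ed/ed* uteri. The *Slc30a1* difference was -0.26 (SE 0.09, 95% interval -0.49 to -0.04), and the genotypes were 0.06 apart at the closest arrays.

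Of the 6 genes, 5 passed the filter and 2 of these, *Mt1* and *Mt2*, were lower past the thresholds, beside 6.47% of all genes tested. All 5 had no overlap between the genotypes with the *Sox17ed/ed* arrays lower, beside 21.0% of all genes tested (19.6% had the *Sox17ed/ed* arrays higher, 40.6% in all). The genes were chosen on this contrast, so nothing is read from these counts. In whole tissue, fewer cells of a type and less RNA per cell cannot be told apart.

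**Figure D2:**
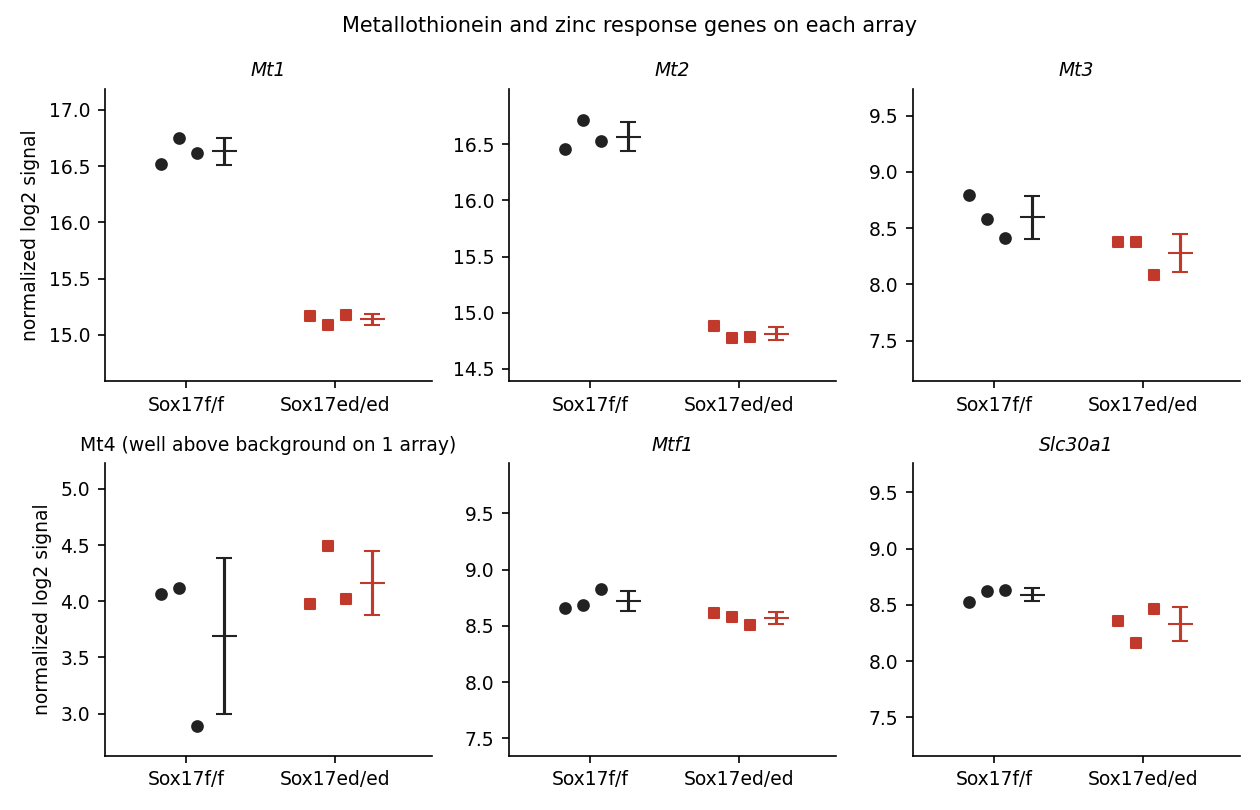
Normalized log2 signal of the 6 genes on each of the 3 *Sox17f/f* and 3 *Sox17ed/ed* arrays, 1 panel to a gene, with points for arrays and bars for the mean ± SD. *Mt1* and *Mt2* lie 1.35 and 1.58 apart between the closest arrays of the genotypes, whereas *Mt3*, *Mtf1* and *Slc30a1* lie 0.04 to 0.06 apart and *Mt4* overlaps.

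Zinc transporters were tested next, since they set how much zinc reaches MTF1. Of 14 zinc importers of the *Slc39a* family, 12 were tested, 2 fell past the thresholds (6.47% of all genes tested did) and 0 rose (6.04%), with a median log2 difference of -0.13 over the 12. *Slc39a4* (ZIP4), the importer that takes up dietary zinc in the intestine, had a log2 signal of 16.06, 15.70 and 15.66 in *Sox17f/f* and 14.64, 14.12 and 14.47 in *Sox17ed/ed* uteri. It fell by 1.399 (SE 0.17, limma adjusted p = 0.0028), and its genotypes lay 1.02 apart. *Slc39a14* (ZIP14), an importer of zinc, iron and manganese that rises in the acute phase response, gave 9.96, 10.00 and 9.81 in *Sox17f/f* and 8.89, 8.80 and 9.01 in *Sox17ed/ed* uteri. It fell by 1.03 (SE 0.09, limma adjusted p = 6.30e-04). Both importers were therefore lower on each *Sox17ed/ed* array than on any *Sox17f/f* array. Of the 12 importers, 5 did not overlap with *Sox17ed/ed* lower and 2 with it higher, beside 21.0% and 19.6% of all genes tested. The other 10 importers had differences between -0.57 (*Slc39a8*) and 0.18 (*Slc39a3*). Under several of the other settings the importers that fell numbered 3, as given below.

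Among 9 other members of the *Slc30a* family, which move zinc out of the cytosol, 5 were tested and 0 passed the thresholds by limma in either direction. Their median difference was -0.17, and 1 had an unadjusted p under 0.05. This was *Slc30a4*, the transporter of zinc into secretory vesicles, with a difference of -0.39 (SE 0.09, limma adjusted p = 0.0325) that is under the fold threshold. For *Slc30a7*, with a difference of -0.01, 1 *Sox17ed/ed* array was left out of the fit as an outlier spot. *Slc30a2*, *Slc30a3*, *Slc30a8* and *Slc30a10* were too dim to be tested. Counted by an adjusted p under 0.05 with no fold threshold, 4 importers and 1 exporter were lower, beside 10.1% of all genes, and 0 transporters were higher, beside 8.84% (18.9% in all).

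**Figure D3:**
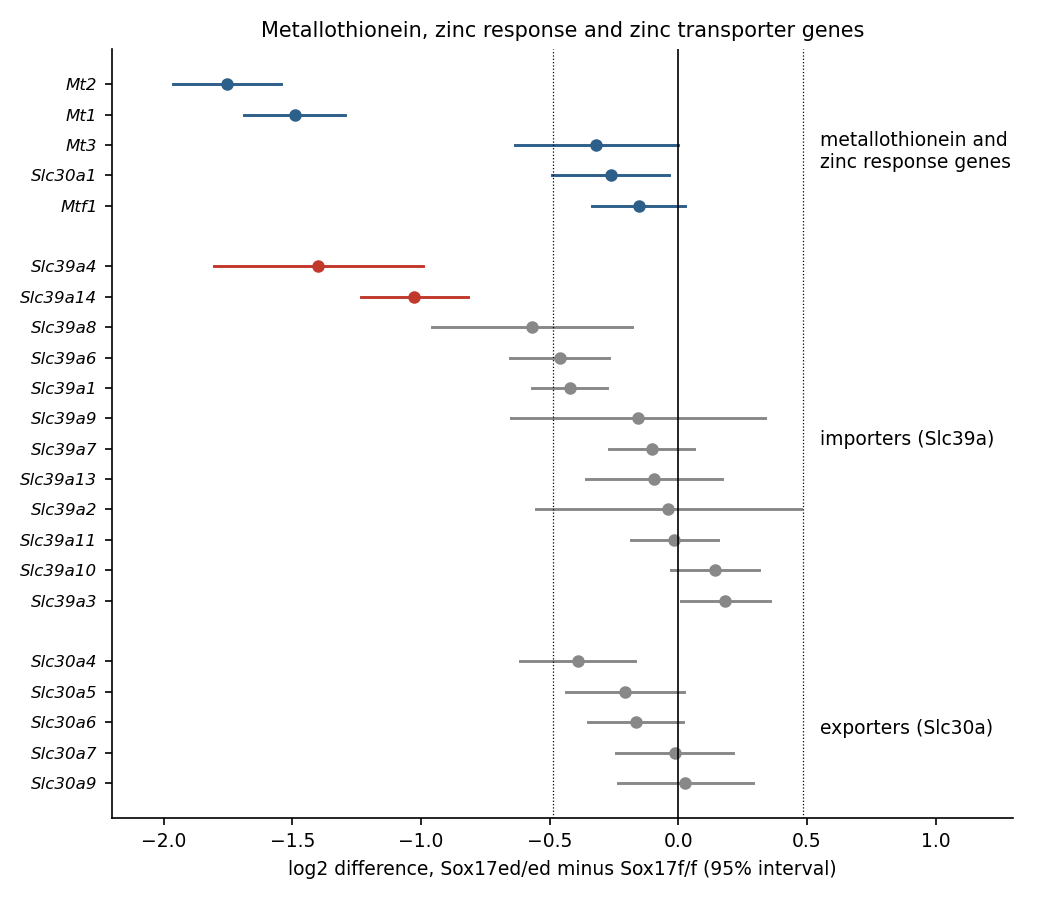
Log2 difference, *Sox17ed/ed* minus *Sox17f/f*, with its 95% interval for the genes tested among the metallothionein and zinc response genes (blue), the *Slc39a* importers and the *Slc30a* exporters, with red for transporters past the thresholds, grey for the others and dotted lines at a fold change of 1.4. *Mt2*, *Mt1*, *Slc39a4* and *Slc39a14* lie between -1.75 and -1.03, and the 3 other tested genes in blue lie between -0.32 and -0.15.

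Of 8 other genes linked to MTF1 or to zinc sensing, 5 were tested, 2 fell and 1 rose, beside 6.47% and 6.04% of all genes tested, with a median of -0.26. *Pgf*, a placental growth factor of the VEGF family, fell by 2.86 (SE 0.21, limma adjusted p = 3.69e-04), from 7.81, 8.07 and 7.74 in *Sox17f/f* to 5.47, 4.75 and 4.82 in *Sox17ed/ed* uteri, a change that was -1.63 after normexp background correction. *Ndrg1*, a gene also induced by hypoxia, fell by 0.70 (SE 0.08, limma adjusted p = 0.00196). *Gclc*, the catalytic subunit of the enzyme that starts glutathione synthesis, rose by 1.07 (SE 0.11, limma adjusted p = 0.00141). Genes linked to MTF1 were found on either side, since *Gclc* was higher in *Sox17ed/ed* uteri and *Mt1* and *Mt2* were lower.

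Genes with metal response element cores in the promoter fell and rose in shares close to those of all genes. Among 425 tested genes with at least 3 cores, 27 fell (6.35%) and 28 rose (6.59%), and among all 11759 tested genes with a promoter sequence 6.09% fell and 5.69% rose. Among the 114 genes with at least 4 cores, the number in *Mt2*, 6 fell and 7 rose. The 27 genes include *Mt1* and *Mt2* themselves, and the 6 include *Mt2*. These counts describe the windows only and were not tested.

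Genes that handle other metals changed in small numbers, with 1 lower and 1 higher in each list (6.47% and 6.04% of all genes tested). Of 8 copper genes tested among 10, *Slc31a2* (CTR2), a copper transporter of internal membranes, fell by 0.79 (SE 0.06, limma adjusted p = 5.15e-04). *Cp* (ceruloplasmin), the ferroxidase that carries copper in plasma, rose by 0.78 (SE 0.09, limma adjusted p = 0.00288), and the median of the list was 0.02. Of 8 iron genes, all tested, *Slc40a1* (ferroportin), the iron exporter, rose by 1.43 (SE 0.11, limma adjusted p = 5.11e-04). *Tfrc*, the transferrin receptor, fell by 0.61 (SE 0.16, limma adjusted p = 0.0451), and the median was -0.08. The call of *Tfrc* held only with all arrays or without *Sox17f/f* replicate 3, and its difference was -0.57 and -0.48 without *Sox17f/f* replicates 1 and 2 and -0.61, -0.55 and -0.65 without *Sox17ed/ed* replicates 1, 2 and 3.

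Oxidative and heavy metal stress, which also acts on metallothionein genes, was read through 10 genes, of which 9 were tested. Of these 2 fell and 2 rose, beside 6.47% and 6.04% of all genes tested, with a median of -0.18. Of those counted as higher, *Slc7a11* was measured in 1 genotype only. *Slc7a11*, the cystine carrier of glutathione synthesis, was well above background on 0 *Sox17f/f* arrays and all 3 *Sox17ed/ed* arrays, and was at least 25.5-fold higher in *Sox17ed/ed* uteri. It passed the filter on dim probes through the *Sox17ed/ed* arrays alone, so no p is given for it. This bound sets the mean of the *Sox17ed/ed* arrays against the lowest signal well above background on each *Sox17f/f* array. *Osgin1*, a growth inhibitor induced by oxidative stress, rose by 0.74 (SE 0.10, limma adjusted p = 0.00452). *Hmox1*, the heme oxygenase that cadmium and oxidants induce, fell by 0.74 (SE 0.18, limma adjusted p = 0.0339), from 10.54, 11.14 and 10.51 in *Sox17f/f* to 10.06, 9.95 and 9.97 in *Sox17ed/ed* uteri. *Gclm*, the partner subunit of *Gclc*, fell by 0.66 (SE 0.16, limma adjusted p = 0.0356). The calls of *Hmox1* and *Gclm* were lost when some of the arrays were left out. *Hmox1* was below the thresholds without *Sox17ed/ed* replicate 1 (-0.77), 2 (-0.72) or 3 (-0.73), differences close to that with all arrays. *Gclm* was below them without *Sox17f/f* replicate 1 (-0.61), 2 (-0.70) or 3 (-0.66) and without *Sox17ed/ed* replicate 2 (-0.64) or 3 (-0.51).

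Glucocorticoid and progesterone receptor responses, a further known input to *Mt1* and *Mt2*, were read through 10 genes, all tested. Of these 3 rose (6.04% of all genes tested did) and 2 fell (6.47%), with a median of -0.01. *Sgk1*, a kinase that controls sodium transport, rose by 1.68 (SE 0.17, limma adjusted p = 0.00124). *Fkbp5*, a cochaperone of steroid receptors, rose by 0.77 (SE 0.12, limma adjusted p = 0.00675), and *Tsc22d3* (GILZ) rose by 0.62 (SE 0.07, limma adjusted p = 0.00285). *Dusp1*, a phosphatase of MAP kinases, fell by 1.03 (SE 0.14, limma adjusted p = 0.00429). The list therefore held genes that rose and genes that fell, the latter being *Dusp1* and *Errfi1* (-0.50, SE 0.09, limma adjusted p = 0.0142). Without *Sox17f/f* replicate 3 or *Sox17ed/ed* replicate 1 the genes that fell numbered 1.

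STAT3 and acute phase genes were the last of the known inputs examined. Of 11 genes, all tested, 7 fell (6.47% of all genes tested did) and 1 rose (6.04%), with a median of -0.996 beside -0.0016 for all genes. *Socs3*, the feedback inhibitor of STAT3 signalling, fell by 1.99 (SE 0.16, limma adjusted p = 4.91e-04), from 12.05, 12.11 and 11.85 in *Sox17f/f* to 10.01, 9.73 and 10.30 in *Sox17ed/ed* uteri. *Bcl3*, a partner of NF-kappa-B, fell by 1.56 (SE 0.06, limma adjusted p = 2.85e-05), and *Osmr*, the oncostatin M receptor, fell by 1.42 (SE 0.08, limma adjusted p = 1.71e-04). *Lcn2*, an acute phase protein that binds bacterial iron carriers, went the other way and rose by 3.76 (SE 0.35, limma adjusted p = 0.00103). *Hp* (-0.40) and *Saa3* (0.36), which also encode acute phase proteins, overlapped between the genotypes and did not pass the thresholds. The list was drawn up with earlier results of these arrays known, and its count is not independent evidence of a direction.

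**Figure D4:**
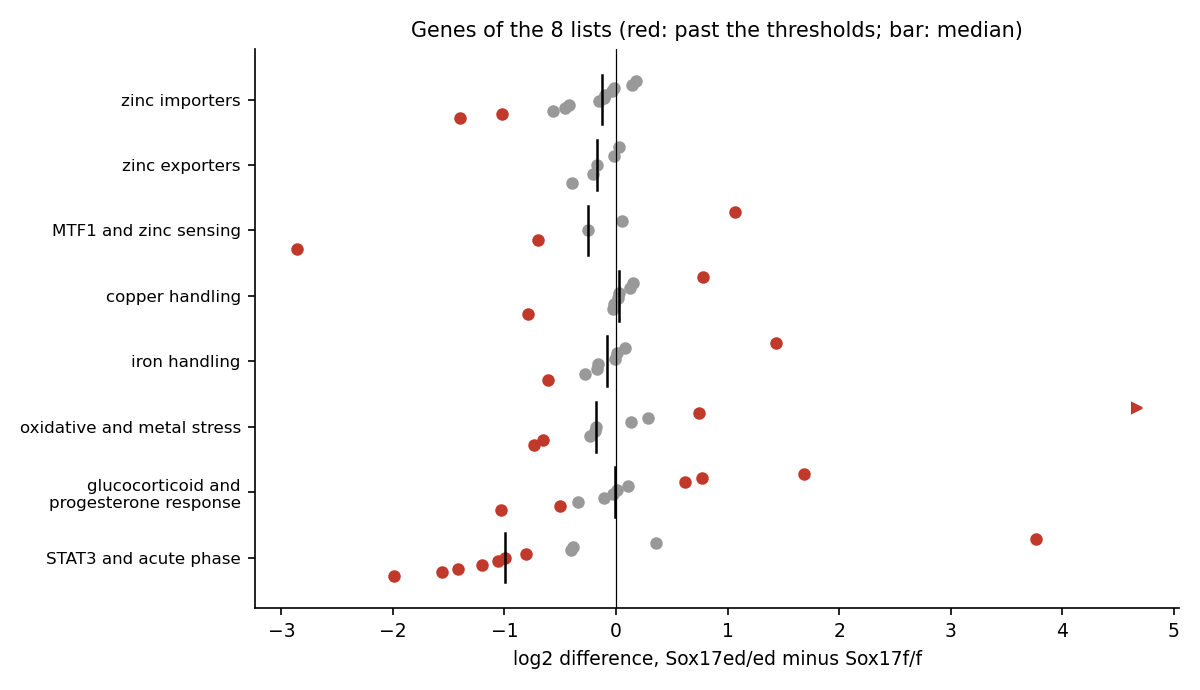
Log2 difference, *Sox17ed/ed* minus *Sox17f/f*, of each tested gene in the 8 gene lists, with coloured points past the thresholds, grey points for the others, and a short line at each list's median. The median of the STAT3 and acute phase list is -0.996 and those of the other lists lie between -0.26 and 0.02, and the triangle marks *Slc7a11* at its lower bound.

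The genes with the pattern most like that of *Mt1* and *Mt2* were found as those with the smallest root mean square difference of centred log2 values over the 6 arrays. For *Mt1* these were *Bcl3* (0.082), *Ctsd* (0.086), *Ankrd29* (0.096), *Ccn1* (0.099) and *Ippk* (0.099). For *Mt2* they included *Plekhs1* (0.090), *Ammecr1* (0.102), *Ctsd* (0.103) and *Pof1b* (0.116). *Mt1* and *Mt2* themselves differed by 0.136, more than either did from these genes, which is the unequal fall described above. *Ctsd*, the lysosomal protease cathepsin D, was the gene shared by the lists, with a log2 signal of 16.43, 16.66 and 16.64 in *Sox17f/f* and 14.91, 14.88 and 15.04 in *Sox17ed/ed* uteri. *Ccn1* is a matrix protein induced by growth factors.

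The 4 metallothionein genes lie next to each other on chromosome 8. Of the 5 nearest tested genes on each side, 2 fell and 0 rose, beside 6.47% and 6.04% of all genes tested, with a median of -0.05. *Bbs2*, *Ogfod1*, *Nudt21* and *Gnao1*, on the side of *Mt4*, had differences between -0.02 and 0.14, and 0 of them passed the thresholds. *Gnao1*, at 0.11 with its brightest probe, had a difference of 1.33 (SE 0.56) as the mean of its probes. *Nup93*, the tested gene next to *Mt1* and a part of the nuclear pore, had a difference of -0.36 (SE 0.13, limma adjusted p = 0.115). Beyond it, *Slc12a3*, the sodium chloride cotransporter known from kidney, was at least 2.63-fold lower in *Sox17ed/ed* uteri, where it was well above background on 0 arrays. It passed the filter on dim probes through the *Sox17f/f* arrays alone, so no p is given for it. *Nlrc5*, an activator of MHC class I genes, fell by 0.63 (SE 0.09, limma adjusted p = 0.00593), and *Herpud1* and *Cpne2* had differences of 0.05 and -0.13.

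Markers of cell types moved with the genotype in part, beside the falls of *Mt1* and *Mt2*. Each count given here stands beside 6.04% higher and 6.47% lower among all genes tested. Of 10 epithelial markers, 4 rose and 2 fell, with a median log2 difference of 0.02. Their summed normalized signal, in which *Wfdc2* (1.47) and *Krt19* (2.10) rose while *Cldn3* (-1.16) and *Cldn7* (-0.71) fell, was 74965 to 78631 in *Sox17f/f* and 102323 to 124990 in *Sox17ed/ed* uteri. All markers of epithelium, stroma and smooth muscle, the main layers of the labelled tissue, passed the filter on dim probes. Smooth muscle markers (0 of 6 past the thresholds) summed to 431469 to 473522 and 329718 to 400129, and endothelial markers (0 of 5) to 7384 to 7519 and 5823 to 6114. Stromal markers (0 of 8) overlapped, at 190835 to 195896 in *Sox17f/f* and 189945 to 206195 in *Sox17ed/ed* uteri. Summed exocrine pancreas markers, of which *Cela2a* and *Pnlip* were not above background on any array and *Cpa1* and *Cel* fell, were 292 to 316 and 196 to 237. Mesothelial markers (1 of 4 rose and 1 fell) summed to 13278 to 14095 and 16071 to 16211. Most of this sum came from *Wt1*, with a mean log2 signal of 13.68 and 13.94 and a difference of 0.26, under the fold threshold. The mesothelial marker that fell, *Lrrn4*, passed the filter on dim probes through the *Sox17f/f* arrays alone. It was at least 1.86-fold lower in *Sox17ed/ed* uteri. Among 5 leukocyte markers, 1 fell. Neutrophil, adipocyte, ovary and erythrocyte markers (0 past the thresholds) overlapped in their sums. The part of these cells in the differences of *Mt1* and *Mt2* was not tested.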

How the data were processed

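Whole uterus samples, 3 *Sox17f/f* and 3 *Sox17ed/ed*, were grouped by genotype as the labels give it. Scanner files, 1 for each array, and a value table of the series were deposited. Spot intensity was taken from the deposited processed signal column, which the scanner software corrects for background and spatial trends within an array and does not normalize between arrays. Per the file headers this was done with Feature Extraction 11.0.1.1, whereas the submitters' processing notes name version 9.1. The deposited table was within 0.191% of that signal, so its scale is linear and uncentred. The array design was annotated on mm9, and genes were named by accession from a RefSeq table of GRCm38.p6, which matched 26582 of 55681 probes.

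Control spots and 169 to 302 outlier spots per array were left out. Log2 intensities were quantile normalized as in the study's methods, replicate spots were averaged, and a probe was kept if 3 or more of the 6 arrays, of either genotype, showed it well above background. The probe of highest mean signal stood for a gene. The genotypes were compared with the lmFit and eBayes functions of limma 3.58.1 (R 4.3.3), and p-values were adjusted by Benjamini-Hochberg across the 14847 genes tested. The thresholds were those of the study's methods. The steps were tested on simulated data. An exact permutation test of 3 arrays against 3 cannot go below 0.1, so none is given, and the number of arrays limits the precision. A probe that no array of a genotype showed well above background is given as a bound, taken over means of normalized log2 values in which a dim array takes the probe's own value or, where that is lower, the array's minimum among clearly measured probes.

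The genes, the lists and the cell type markers were chosen with earlier results of these data known. The genes named are the 6 described, *Sox17*, zinc transporters past the thresholds, up to 4 genes past the thresholds in each other list by size of difference, the 5 genes most like *Mt1* and the 5 most like *Mt2*, and the 5 nearest tested protein-coding genes on each side of the metallothionein cluster. *Slc39a8*, *Slc39a3*, *Slc30a4*, *Slc30a7*, *Errfi1*, *Hp*, *Saa3*, *Wfdc2*, *Krt19*, *Cldn3*, *Cldn7*, *Cpa1*, *Cel*, *Wt1* and *Lrrn4* were named after their values were seen. Of the genes this rule gives, 2 are not reported here. The alternatives were a 75th percentile shift, normexp correction (offset 50), the filter dropped or raised to all 6 arrays, averaging over the probes of a gene, the deposited table, an intensity trend, the replicate number as a block, an adjusted p under 0.05 in place of the thresholds, and each array left out. Normexp was run on the median signal, a choice made after the data were seen. Protein sequences were not used here.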

Additional observations from a re-analysis of the deposited data

How the results depend on the processing

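*Mt1* and *Mt2* were lower in *Sox17ed/ed* uteri under every alternative run, with log2 differences of -1.54 to -1.44 for *Mt1* and -1.81 to -1.69 for *Mt2* over all settings and arrays left out. *Mt3* lay between -0.41 and -0.20 and *Slc30a1* between -0.33 and -0.18. *Mtf1* was -0.044 after normexp correction and -0.24 as the mean of its probes, and lay between -0.19 and -0.10 with 1 array left out. With an adjusted p and no fold threshold, 4 importers, 1 exporter and 1496 of all genes were lower. At the thresholds, 3 importers fell under the 75th percentile shift, normexp, no filter, the filter on all 6 arrays and the intensity trend. With 1 array left out the importers that fell numbered 2 to 3. With no filter on dim probes 1 exporter and 2 genes linked to MTF1 or zinc sensing were higher. The iron genes that fell numbered 0 under normexp, no filter, the mean of probes and the replicate block, and 0 to 1 with 1 array left out. The stress genes that fell numbered 1 under normexp, the mean of probes and the replicate block, and 0 to 1 with 1 array left out, and those that rose numbered 1 where all 6 arrays had to be above background, since *Slc7a11* was then not tested. The glucocorticoid and progesterone genes that fell numbered 1 under normexp and 1 to 2 with 1 array left out. The sign of 3 neighbours of the cluster, all near 0, turned: *Herpud1* was -0.0015 under normexp, and with 1 array left out *Herpud1* lay between -0.046 (without *Sox17f/f* replicate 1) and 0.118, *Nudt21* between -0.060 and 1.4e-04 (without *Sox17f/f* replicate 1), and *Ogfod1* between -0.081 and 0.025 (without *Sox17ed/ed* replicate 1; 0.022 without *Sox17f/f* replicate 1). *Gnao1*, another neighbour, was 1.33 as the mean of its probes against 0.11 with its brightest probe. *Slc12a3* was -0.72 and *Slc7a11* 2.47 under normexp, whose offset of 50 shrinks dim signals. The cause of the other changes was not tested.

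The arrays share replicate numbers that also give the column of the slide. Deviations of same-numbered arrays from their group means correlated at 0.06, -0.11 and -0.00011. Those of differently numbered arrays correlated at -0.08 to 0.08. The labels do not say what the numbers mark. With 3 arrays in each group these values cannot settle whether the numbers pair the arrays. With the replicate block the differences of *Mt1* (-1.49) and *Mt2* (-1.75) were as before, and *Tfrc* and *Hmox1* were below the thresholds. A block for slide, scan or line could not be fitted, since all arrays shared the slide and the scan and each line held 1 genotype only.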
